A study of Mus musculus with 9 samples.

Results

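The 10 genes described here, Cish, Socs1, Socs2, Socs3, Pim1, Pim2, Pim3, Osm, Id1 and Il2ra, are cytokine-responsive genes of the JAK-STAT5 pathway, and they were taken by symbol from the 24421 gene symbols of the count table. All 10 were in the table, and all 10 were among the 13270 genes that passed the filter on low counts. The RNA came in bulk from mouse cells described as blast-like and myeloid, which had been grown for 5 days from bone marrow cleared of lineage-positive cells. Every culture received IL-3, IL-6 and SCF, and the strain background is given as C57BL/6 throughout. The 9 libraries form 3 groups of 3: Tet2-/-Flt3ITD cells given SHP099 for 24 h (SHP099-treated mutant cells), Tet2-/-Flt3ITD cells given vehicle (mutant vehicle cells), and wild-type cells given vehicle (WT cells). The mutant cells lack Tet2, a DNA demethylase, and carry an internal tandem duplication in Flt3, a receptor tyrosine kinase, so what each allele does alone cannot be told apart. SHP099 blocks the tyrosine phosphatase SHP2, the product of Ptpn11, by binding away from its active site. The labels give no SHP099 dose and no age, and there is no SHP099-treated WT group. The mutant cultures came from individual mice. For the WT cultures no individual animals are named, so their p-values may measure technical spread only.

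Cytokine receptors without a kinase of their own, such as the IL-3 receptor, signal through JAK kinases that phosphorylate STAT5, which then enters the nucleus and binds target genes. FLT3 with an internal tandem duplication is known for activating STAT5 without its ligand. CISH and the SOCS proteins are induced by this pathway and feed back on it: their SH2 domains bind phosphorylated receptors or JAKs, and their SOCS box recruits a ubiquitin ligase. The PIM proteins are serine/threonine kinases that are regulated mainly by how much of them is made, and they promote survival and protein synthesis in blood cells.

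STAT5 dimers are known to bind palindromes of the form TTCNNNGAA. The promoter windows of RefSeq (build GRCm38.p6), 300 bases from 250 before the start site to 50 after it, hold 7 of the 10 genes. Socs2, Osm and Id1 have no window there. A search for TTCNNNGAA, which reads the same on both strands and in which overlapping matches were counted, found it in the windows of 2 genes, Cish and Socs3. Those 2 stretches are shown because no other window of these genes held a match. Capitals mark the fixed bases of each match.
Cish: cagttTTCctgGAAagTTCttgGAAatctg
Socs3: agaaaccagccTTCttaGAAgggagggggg
The Cish stretch lies at chr9:107296654-107296683 on the plus strand, and its 2 matches begin at bases 1 and 12 counted from the RefSeq start site. The Socs3 stretch lies at chr11:117969502-117969531 on the minus strand, and its match begins at base -154. Both stretches lie inside the span of their gene in the GENCODE M21 annotation, which begins further upstream than the RefSeq start site. Across all 32851 windows, 8.30% held at least 1 match and 0.457% held at least 2. The windows of Socs1, Pim1 (which has 2), Pim2, Pim3 and Il2ra held no TTCNNNGAA. The 7 genes' windows held no match to TTCNNNNGAA, a wider spacing that 6.95% of all windows hold. A match is a run of letters and not evidence of binding.

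Total counts per library ran from 27242168 to 45810089. Tet2 averaged 12.4 ± 1.28 CPM (counts relative to library size) in SHP099-treated mutant cells, 15.5 ± 1.30 CPM in vehicle-treated mutant cells and 33.2 ± 1.48 CPM in WT cells (SD, n = 3 each). Tet2 counts were thus lower in all mutant libraries but not absent, and no value here checks the deleted part of Tet2 or the Flt3ITD allele. For the labelled blast-like myeloid cells, 9 progenitor and primary granule markers were summed, with no threshold that could decide their identity. Their summed level was 15704.5 to 21986.8 CPM in SHP099-treated mutant cells, 14829.5 to 21416 CPM in vehicle-treated mutant cells and 13225.9 to 16862.8 CPM in WT cells, and none of them was at 0. SHP099 replicate 3 stood apart in the ribosomal transcript Rn45s, which took 4.33% of its counts, against 0.276% to 0.734% in the other 8 libraries.

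Of the 10 genes, 4 passed the test for SHP099 against vehicle in mutant cells, with Socs1, Pim2 and Il2ra higher and Pim3 lower. A gene passed, or was called, when its edgeR quasi-likelihood p-value, adjusted over all 13270 genes by the Benjamini-Hochberg method, was under 0.05. The same test called 21.8% of all genes in this comparison, 8.81% higher and 13% lower. The count of members stayed at 4 without SHP099 replicate 3, although the count over all genes was then 1769 in place of 2890. For mutant against WT vehicle cells 6 of the 10 passed, with Socs2 and Id1 higher and Socs1, Pim2, Osm and Il2ra lower, beside 31.6% of all genes. For SHP099-treated mutant against WT cells 5 passed, with Socs2, Socs3 and Id1 higher and Pim3 and Osm lower, beside 31.7% of all genes. That last count was 3 without SHP099 replicate 2, where Socs2 and Socs3 lost their calls. The 3 libraries of a group lay apart from the 3 of the other for 4 of the 10 genes with SHP099 against vehicle, beside 40.7% of all genes, for 6 with mutant against WT, beside 45.1%, and for 7 with SHP099-treated mutant against WT, beside 47.9%. The median log2 fold change over the 10 genes was 0.13 for SHP099 against vehicle, -0.05 for mutant against WT and 0.10 for SHP099-treated mutant against WT, beside medians of 0.0036, 0.02 and 0.0049 over all genes tested. The comparisons share libraries: SHP099 against vehicle and mutant against WT both contain the mutant vehicle libraries.

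**Figure D1:**
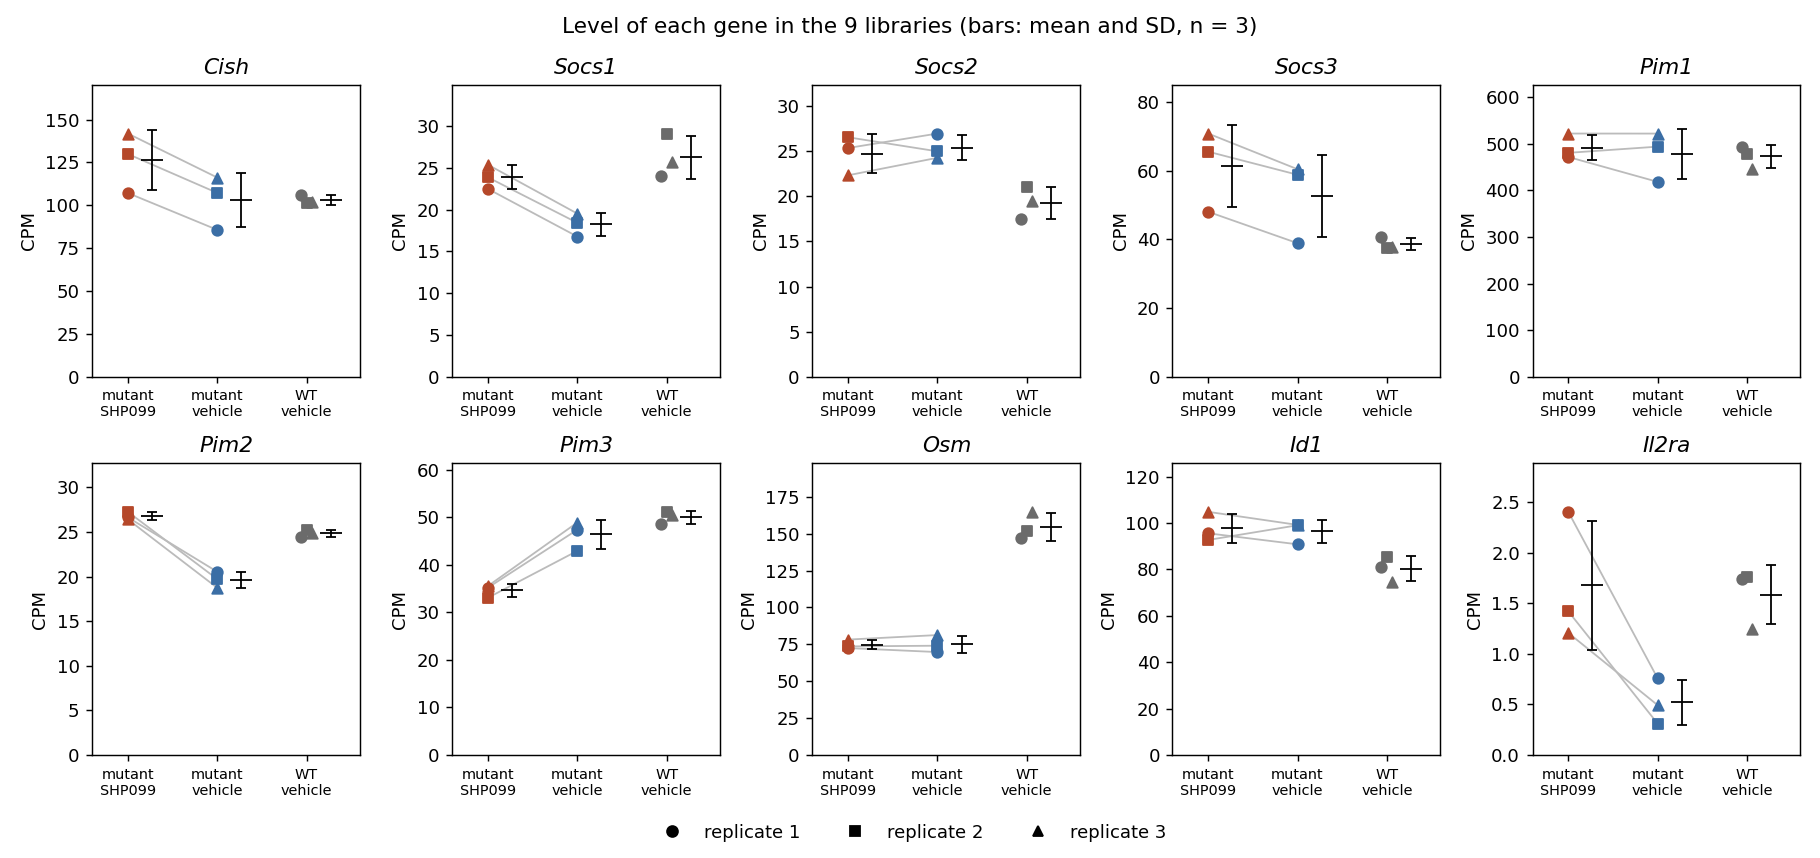
Level of each gene in CPM in every library, with SHP099-treated mutant cells on the left, mutant vehicle cells in the middle and WT cells on the right. Symbols give the replicate number, grey lines join mutant libraries of the same number, and bars give the mean and SD (n = 3). Pim2 in SHP099-treated cells lies above both vehicle groups, Osm is lower in all 6 mutant libraries than in any WT library, and the Cish and Socs3 lines run nearly in parallel.

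Cish encodes the founding member of the family, which acts at cytokine receptors. It lies on chromosome 9 from 107296026 to 107302784 (GENCODE M21, GRCm38). Cish stood at 107, 130 and 142 CPM in replicates 1 to 3 of SHP099-treated mutant cells, at 85.6, 107 and 116 CPM in mutant vehicle cells, and at 106, 102 and 102 CPM in WT cells. The 2 mutant groups overlapped, and replicate 1 was the lowest in both of them, while the WT libraries lay close together. Cish was 0.29 ± 0.12 higher on the log2 scale with SHP099 than with vehicle (SE), which did not pass the test (edgeR adjusted p = 0.103). Within the numbered cultures the log2 ratio of SHP099 to vehicle was 0.32, 0.28 and 0.29, positive in 3 of 3. The mutant libraries of 1 number deviated together across genes, so they can be compared in pairs. With the replicate number as a block in the 6 mutant libraries alone, Cish was higher by 0.30 ± 0.04 (edgeR adjusted p = 4.33e-07), in a fit that called 42.8% of all genes. With 1 library left out of the unpaired fit the difference ran from 0.18 without mutant vehicle replicate 1 to 0.41 without SHP099 replicate 1, with an adjusted p of 0.0312 without that SHP099 library and of up to 0.287 in the other fits. Against WT cells, mutant vehicle cells differed by -0.0005 on the log2 scale (interval -0.23 to 0.23).

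SHP099-treated mutant cells had more Cish than WT cells in every library, by 0.29 ± 0.12 on the log2 scale, and this difference also missed the threshold (edgeR adjusted p = 0.0837). With 1 library left out the difference ran from 0.18 without SHP099 replicate 3 (adjusted p = 0.304) to 0.40 without SHP099 replicate 1 (adjusted p = 0.0261), and the adjusted p was 0.0366 without mutant vehicle replicate 1. Exons of Cish overlap the antisense genes Gm17040 and Gm17041 in GENCODE M21 by 261 and 479 bases, and the strand setting of the counting is not given in the sources used here.

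Socs1, on chromosome 16 from 10782240 to 10785536, encodes an inhibitor of JAK kinase activity. Its level was 22.5, 23.9 and 25.4 CPM in SHP099-treated mutant cells, 16.8, 18.4 and 19.5 CPM in mutant vehicle cells, and 24.1, 29.1 and 25.7 CPM in WT cells. The mutant vehicle libraries were the 3 lowest of the 9, with no overlap with either other group. Socs1 rose by 0.39 ± 0.09 log2 units with SHP099 (edgeR adjusted p = 0.0119), with ratios of 0.42, 0.37 and 0.38 in the 3 culture pairs. It was lower in mutant vehicle than in WT cells, by a log2 fold change of -0.52 ± 0.09 (edgeR adjusted p = 0.0023). SHP099-treated mutant cells and WT cells overlapped, and their difference of -0.14 ± 0.09 did not pass (edgeR adjusted p = 0.255, interval -0.30 to 0.03).

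Socs2, on chromosome 10 from 95385362 to 95417180, encodes the family member known for restraining growth hormone signalling. Socs2 measured 25.4, 26.6 and 22.4 CPM in SHP099-treated mutant cells, 26.99, 25.0 and 24.3 CPM in mutant vehicle cells, and 17.5, 20.998 and 19.4 CPM in WT cells. All 6 mutant libraries lay above the 3 WT libraries, and the 2 mutant groups overlapped. It was higher in mutant vehicle than in WT cells by 0.40 ± 0.09 (edgeR adjusted p = 0.00808) and in SHP099-treated mutant than in WT cells by 0.36 ± 0.09 (edgeR adjusted p = 0.0124). The call for SHP099-treated mutant against WT was lost without SHP099 replicate 2, at an adjusted p of 0.0503 and a difference of 0.31. SHP099 against vehicle gave -0.04 ± 0.09 with an interval of -0.21 to 0.13, and the culture pairs gave -0.09, 0.09 and -0.12.

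Socs3, on chromosome 11 from 117966079 to 117970047, encodes the inhibitor that binds the shared receptor chain gp130 of the IL-6 family. Socs3 reached 48.0, 65.6 and 70.9 CPM in SHP099-treated mutant cells, 38.9, 58.8 and 60.5 CPM in mutant vehicle cells, and 40.6, 37.5 and 37.7 CPM in WT cells. As for Cish, replicate 1 was the lowest in both mutant groups, and in vehicle it lay inside the WT range. The spread was wider in the mutant groups, with SDs of 11.9 CPM with SHP099 and 12.01 CPM with vehicle, than in WT cells, with 1.74 CPM. Socs3 was higher in SHP099-treated mutant than in WT cells by 0.67 ± 0.17 (edgeR adjusted p = 0.0168). This call was lost without WT replicate 2 (0.0525), WT replicate 3 (0.0524), SHP099 replicate 2 (0.0537) or SHP099 replicate 3 (0.0650), these values being adjusted p. For mutant against WT vehicle cells the difference of 0.45 ± 0.17 missed the threshold (edgeR adjusted p = 0.0742). The adjusted p was 0.0123 without mutant vehicle replicate 1 and 0.0480 without SHP099 replicate 1, and it reached 0.247 without mutant vehicle replicate 3, where the difference was 0.33.

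The SHP099 comparison of Socs3 gave 0.22 ± 0.17 without pairing (edgeR adjusted p = 0.402) and ratios of 0.30, 0.16 and 0.23 in the 3 culture pairs. With 1 library left out of the unpaired fit it ran from 0.04 without mutant vehicle replicate 1 (adjusted p = 0.873) to 0.38 without SHP099 replicate 1. With the block in the mutant libraries alone it was 0.23 ± 0.05 (edgeR adjusted p = 0.00016). So Cish and Socs3 passed that paired fit beside the 4 genes called without pairing, which made 6 of 10, with 5 higher and 1 lower. The same fit called 42.8% of all genes, 2791 higher and 2772 lower.

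**Figure D2:**
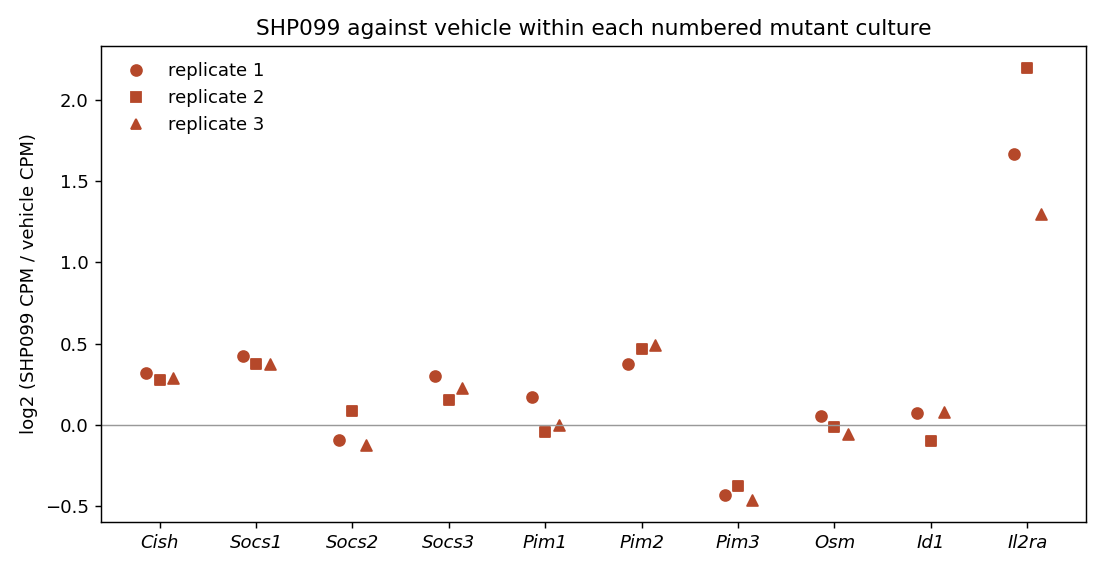
Log2 ratio of the level with SHP099 to the level with vehicle, for each gene and each numbered mutant culture. Points above 0 are higher with SHP099. Cish, Socs1, Socs3, Pim2 and Il2ra are above 0 in 3 of 3 cultures and Pim3 is below 0 in 3 of 3, while Socs2, Pim1, Osm and Id1 scatter around 0.

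The 3 Pim genes did not move together. Pim1, on chromosome 17 from 29490753 to 29496112, encodes the kinase first found at proviral integrations in mouse lymphomas, and was the most abundant of the 10 per kilobase. Its level was 472, 481 and 522 CPM in SHP099-treated mutant cells, 419, 494 and 522 CPM in mutant vehicle cells, and 494, 479 and 446 CPM in WT cells, with all 3 groups overlapping. SHP099 against vehicle gave 0.04 ± 0.08 (interval -0.12 to 0.20), mutant against WT 0.02 ± 0.08 (interval -0.14 to 0.17) and SHP099-treated mutant against WT 0.06 ± 0.08 (interval -0.10 to 0.21), all on the log2 scale. Exons of Pim1 overlap 488 bases of the antisense gene Gm26885, whose reads cannot be told apart without the strand setting.

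Pim2, on chromosome X from 7878262 to 7883432, encodes a kinase that phosphorylates the translation repressor 4E-BP1. It stood at 26.6, 27.3 and 26.4 CPM in SHP099-treated mutant cells, 20.5, 19.7 and 18.7 CPM in mutant vehicle cells, and 24.4, 25.2 and 24.8 CPM in WT cells. None of the 3 groups overlapped, with mutant vehicle lowest and SHP099-treated mutant cells highest. Pim2 rose with SHP099 by 0.45 ± 0.05 (edgeR adjusted p = 0.00072), with paired ratios of 0.38, 0.47 and 0.50. In mutant vehicle against WT cells it was lower, by -0.34 ± 0.05 (edgeR adjusted p = 0.00181). The remaining difference between SHP099-treated mutant and WT cells, 0.11 ± 0.05, did not pass (edgeR adjusted p = 0.142).

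Pim3, on chromosome 15 from 88862186 to 88865726, encodes the third kinase of the family. Its values were 35.2, 33.1 and 35.5 CPM in SHP099-treated mutant cells, 47.4, 42.9 and 48.9 CPM in mutant vehicle cells, and 48.5, 51.1 and 50.4 CPM in WT cells. The SHP099 libraries were the 3 lowest of the 9, and the 2 vehicle groups overlapped. Pim3 fell with SHP099, at a log2 fold change of -0.42 ± 0.06 (edgeR adjusted p = 0.00116), with paired ratios of -0.43, -0.38 and -0.46. It was also lower in SHP099-treated mutant than in WT cells, at -0.53 ± 0.06 (edgeR adjusted p = 0.00035). Mutant vehicle against WT gave -0.11 ± 0.06 and was not called (edgeR adjusted p = 0.171).

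Per kilobase of transcript, Pim1 made up 86.9% ± 0.570 of the summed Pim level in SHP099-treated mutant cells, 86.0% ± 1.70 in mutant vehicle cells and 84.2% ± 0.869 in WT cells (SD, n = 3 each). The share of Pim2 was 6.26% ± 0.362 with SHP099, 4.71% ± 0.673 in mutant vehicle cells and 5.84% ± 0.287 in WT cells. For Pim3 the share was 6.81% ± 0.306 with SHP099, 9.33% ± 1.11 in mutant vehicle cells and 9.91% ± 0.583 in WT cells. Every library of all 3 groups had more Pim3 than Pim2 per kilobase. The shares of the 2 genes lay closest in SHP099-treated cells, where Pim2 reached at most 6.50% and Pim3 was at least 6.62%.

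Osm, on chromosome 11 from 4236420 to 4241026, encodes oncostatin M, an IL-6 family cytokine made by myeloid cells. Osm measured 72.5, 73.6 and 78.2 CPM in SHP099-treated mutant cells, 69.7, 74.0 and 81.3 CPM in mutant vehicle cells, and 147, 152 and 165 CPM in WT cells. Every mutant library lay far below every WT library, and the 2 mutant groups overlapped. The log2 fold change was -1.04 ± 0.06 for mutant vehicle against WT (edgeR adjusted p = 3.29e-05) and -1.05 ± 0.06 for SHP099-treated mutant against WT (edgeR adjusted p = 3.48e-05). With SHP099 the change against vehicle was -0.01 ± 0.06 (interval -0.13 to 0.12), and its sign turned under 9 of the 18 alternatives. The receptor chain that is particular to oncostatin M, Osmr, reached at most 3 counts in a library and was not tested.

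Id1, on chromosome 2 from 152736251 to 152737410, encodes a helix-loop-helix protein without a DNA-binding region that blocks partner transcription factors. Levels were 95.6, 92.7 and 105 CPM in SHP099-treated mutant cells, 90.8, 99.0 and 99.2 CPM in mutant vehicle cells, and 81.0, 85.2 and 74.5 CPM in WT cells. Again all 6 mutant libraries were above the WT libraries and the mutant groups overlapped. The difference from WT was 0.28 ± 0.06 in SHP099-treated mutant cells (edgeR adjusted p = 0.0088) and 0.27 ± 0.06 in mutant vehicle cells (edgeR adjusted p = 0.0118). For mutant vehicle cells it missed the threshold without WT replicate 3 (difference 0.19, adjusted p = 0.0565), without mutant vehicle replicate 2 (0.23, adjusted p = 0.0521) or without mutant vehicle replicate 3 (0.23, adjusted p = 0.0585). SHP099 against vehicle gave 0.02 ± 0.06 (interval -0.10 to 0.14).

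Il2ra, on chromosome 2 from 11642807 to 11693193, encodes the alpha chain of the IL-2 receptor, CD25, and was the least abundant of the 10. It had 109, 60 and 47 counts in SHP099-treated mutant cells, 24, 13 and 18 counts in mutant vehicle cells, and 61, 49 and 52 counts in WT cells. In CPM these were 2.41, 1.42 and 1.21 with SHP099, 0.758, 0.310 and 0.492 in mutant vehicle cells, and 1.74, 1.76 and 1.25 in WT cells. The mutant vehicle libraries were the 3 lowest, without overlap, and the other groups overlapped.

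Il2ra rose with SHP099 by 1.72 ± 0.36 log2 units (edgeR adjusted p = 0.00898), a 3.30-fold difference and the largest of the 10. Its paired ratios were 1.67, 2.20 and 1.29. In mutant vehicle against WT cells it was lower, at -1.62 ± 0.37 (edgeR adjusted p = 0.00914). SHP099-treated mutant against WT gave 0.10 ± 0.32, with an interval of -0.53 to 0.73 that leaves room for a change in either direction. Il2rb, the chain that completes signalling, reached at most 6 counts in a library and was not tested, whereas Il2rg, the gamma chain shared by several receptors, averaged 94.5 CPM with SHP099, 83.6 CPM in vehicle-treated mutant cells and 95.3 CPM in WT cells. Il2rg was not called by edgeR, but DESeq2 called it for SHP099 against vehicle and for mutant against WT.

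**Figure D3:**
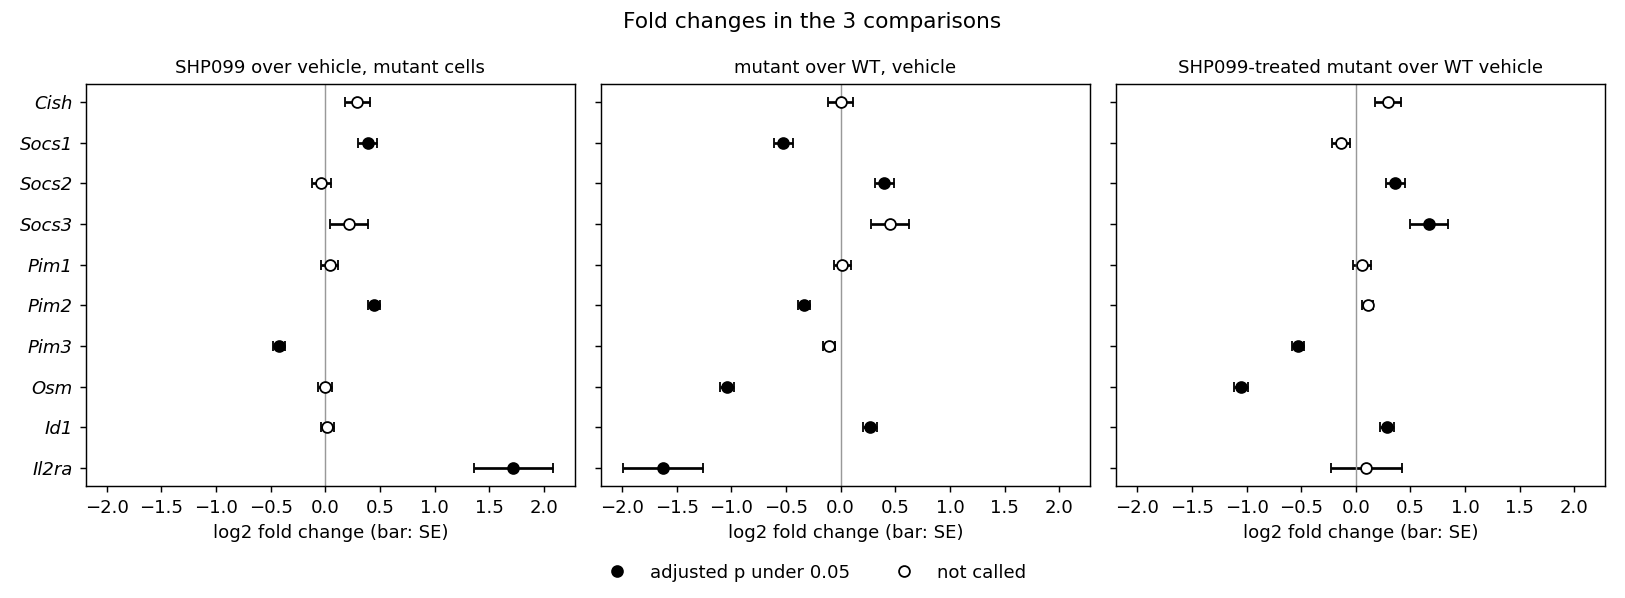
Log2 fold change of each gene in the 3 comparisons, with bars for the standard error. Filled symbols passed an adjusted p of 0.05. Socs1, Pim2 and Il2ra are right of 0 for SHP099 over vehicle and left of 0 for mutant over WT, 2 comparisons that share the mutant vehicle libraries, and Osm is filled in both comparisons with WT.

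Levels in bulk libraries depend on which cells were present, and fewer cells of a type cannot be told apart from less RNA per cell. CD25 is known as a marker of T cells. Of the 9 T cell markers in the table, 7 were under 1 CPM in every library, Cd3e reached 0.0240 CPM and Foxp3 0.286 CPM. The summed T cell marker level was 5.42 to 7.24 CPM in SHP099-treated mutant cells, 6.46 to 8.44 CPM in vehicle-treated mutant cells and 5.90 to 7.02 CPM in WT cells, with overlap. Of 3 tested T cell markers none was called with SHP099 against vehicle. Lck was higher than in WT cells in mutant vehicle cells (0.78) and in SHP099-treated mutant cells (0.62). Beside these marker lists, 21.8% of all genes were called for SHP099 against vehicle, 31.6% for mutant against WT and 31.7% for SHP099-treated mutant against WT. Of 15 mast cell and basophil markers, 6 were higher with SHP099 and none lower, and 13 were lower in mutant vehicle than in WT cells. Their summed level was 2526.7, 2072 and 2707 CPM in SHP099-treated mutant cells, 1867, 1443 and 2051 CPM in mutant vehicle cells, and 2781, 3169.6 and 3020.1 CPM in WT cells, and none was at 0. Like Socs1, Pim2 and Il2ra, the sum was lowest in the mutant vehicle libraries, although SHP099 replicate 2 lay barely above mutant vehicle replicate 3. Unlike those 3 genes, it was lower in every SHP099 library than in any WT library. In SHP099-treated mutant against WT cells 6 of the 15 markers were lower and 1 was higher.

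Of 11 neutrophil markers, 4 were higher and none lower with SHP099, and in mutant vehicle against WT cells 7 were lower and 1 higher. They summed to 25511.1 to 30496 CPM with SHP099, 17649.8 to 18717 CPM in vehicle-treated mutant cells and 24174.4 to 30603.6 CPM in WT cells. This sum too was lowest in the mutant vehicle libraries, without overlap, while the SHP099 and WT ranges overlapped as for Socs1 and Il2ra. Osm was lower in both mutant groups than in WT cells, and the summed levels of the mast cell, megakaryocyte and erythroid lists were so too, without overlap. The megakaryocyte list had 7 of 7 markers lower in SHP099-treated mutant cells and 7 of 7 in mutant vehicle cells, and the erythroid list had 5 of 6 tested markers lower in SHP099-treated mutant cells and 6 of 6 in mutant vehicle cells. Of the erythroid genes, Hbb-bt and Hba-a1 were at 0 in all libraries. The megakaryocyte sum was 1563.8 to 1968.2 CPM with SHP099, 1268.9 to 1673.1 CPM in vehicle-treated mutant cells and 2674.5 to 3375.7 CPM in WT cells, and the erythroid sum 80.8 to 109.9 CPM with SHP099, 60.1 to 94.5 CPM in vehicle-treated mutant cells and 149.8 to 231.3 CPM in WT cells. Of 8 monocyte and macrophage markers, 6 were higher and none lower in SHP099-treated mutant than in WT cells. That list summed to 1852.2 to 2057 CPM with SHP099, 1281 to 1584.5 CPM in vehicle-treated mutant cells and 1029.8 to 1323.2 CPM in WT cells. Of 5 tested endothelial and stromal markers, 2 were lower in each mutant group than in WT cells, and that list summed to 6.89 to 15.6 CPM with SHP099, 6.35 to 14.8 CPM with vehicle and 15.1 to 37.8 CPM in WT cells. The part of these cell types in the results for the 10 genes was not tested.

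To compare genes with each other, levels were divided by the length of the longest coding transcript. In SHP099-treated mutant cells the mean level ran from 182 CPM per kilobase for Pim1 through 84.2 for Id1, 44.3 for Cish, 32.9 for Osm, 24.1 for Socs3, 14.3 for Pim3, 13.1 for Pim2, 11.1 for Socs2 and 8.22 for Socs1 to 0.380 for Il2ra. No neighbours in that order overlapped over the 3 libraries. In mutant vehicle cells the order was Pim1 (177), Id1 (83.1), Cish (36.1), Osm (33.0), Socs3 (20.7), Pim3 (19.1), Socs2 (11.4), Pim2 (9.62), Socs1 (6.27) and Il2ra (0.118), all in CPM per kilobase. There Cish and Osm overlapped, as did Socs3 and Pim3. WT cells had Pim1 at 175, Id1 at 69.2, Osm at 68.0, Cish at 36.2, Pim3 at 20.6, Socs3 at 15.1, Pim2 at 12.1, Socs1 at 9.04, Socs2 at 8.69 and Il2ra at 0.359 CPM per kilobase. In WT cells Id1 and Osm overlapped, and so did Socs1 and Socs2.

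**Figure D4:**
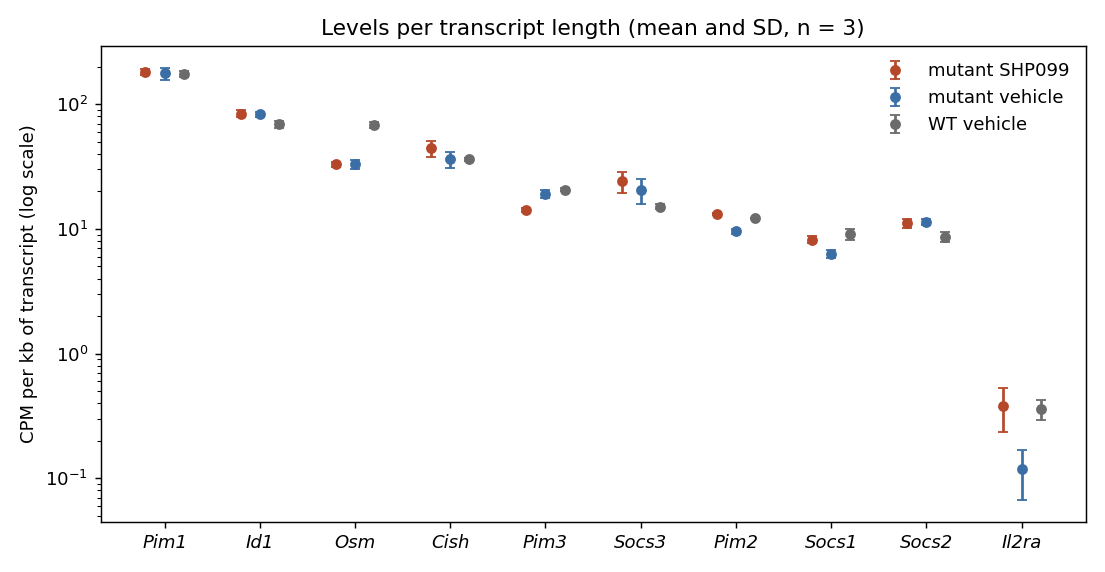
Mean level and SD (n = 3) of each gene in CPM per kilobase of transcript, on a log scale, for SHP099-treated mutant, mutant vehicle and WT cells from left to right. Pim1 and Id1 lead in all 3 groups and Il2ra is lowest, while Osm takes the place next to Id1 in WT cells but lies at or below Cish in both mutant groups.

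Within the CISH and SOCS genes, Cish held 50.4% ± 1.09 of the summed level per kilobase with SHP099, 48.4% ± 1.10 in mutant vehicle cells and 52.4% ± 1.37 in WT cells. Socs1 held 9.43% ± 0.702 with SHP099, 8.47% ± 0.573 in mutant vehicle cells and 13.1% ± 1.21 in WT cells. Socs3 held 27.3% ± 2.08 with SHP099, 27.5% ± 2.93 in mutant vehicle cells and 21.9% ± 0.957 in WT cells. In both mutant groups the mix therefore held less Socs1 and more Socs3 in every library than in any WT library.

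Of 20 other STAT5 and cytokine target genes, 3 were higher and 5 lower with SHP099 against vehicle, 5 higher and 5 lower in mutant vehicle against WT cells, and 3 higher and 7 lower in SHP099-treated mutant against WT cells. Their median log2 fold changes were 0.01, 0.04 and -0.17. Beside this list and those below, 21.8%, 31.6% and 31.7% of all genes were called in the same 3 comparisons. The cell cycle genes Cdk6 and Ccnd2 fell with SHP099. Cdk6 averaged 49.3 ± 3.04 CPM with SHP099 and 75.7 ± 1.73 CPM with vehicle, a log2 fold change of -0.62 ± 0.05 (edgeR adjusted p = 0.00019). Ccnd2, which encodes cyclin D2, averaged 189 ± 14.2 CPM with SHP099 and 284 ± 12.7 CPM with vehicle, at -0.59 ± 0.06 (edgeR adjusted p = 0.00047). In mutant vehicle against WT cells Cdk6 and Ccnd2 were higher, by 0.39 and 0.35. Myc was also higher in that comparison, by 0.49 ± 0.05 (edgeR adjusted p = 0.00023), and Bcl2l1 was lower, at -0.41 ± 0.05 (edgeR adjusted p = 0.00088). Ccnd3, another D cyclin of the list, was higher with SHP099 by 0.18 ± 0.05 (edgeR adjusted p = 0.0306), a call lost in 5 of 18 alternatives. Lif, another IL-6 family cytokine, was higher with SHP099, at 21.5 ± 1.08 CPM against 14.03 ± 1.80 CPM with vehicle and 36.2 ± 6.87 CPM in WT cells. It thus rose by 0.61 ± 0.13 with SHP099 (edgeR adjusted p = 0.0106) and was lower by -1.37 ± 0.13 in mutant vehicle against WT cells (edgeR adjusted p = 0.00026).

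Among the 11 JAK and STAT genes, 2 were lower and none higher with SHP099 against vehicle, 1 was lower and 1 higher in mutant vehicle against WT cells, and 3 were lower and none higher in SHP099-treated mutant against WT cells. Stat2 was lower with SHP099 than with vehicle, at -0.26 ± 0.05 (edgeR adjusted p = 0.00821). In SHP099-treated mutant against WT cells it was lower by -0.32 ± 0.05 (edgeR adjusted p = 0.00233). Both Stat2 calls held in every alternative. Stat5b averaged 104 CPM with SHP099, 104 CPM in vehicle-treated mutant cells and 111 CPM in WT cells. It was not called by edgeR in any comparison, but DESeq2 called it for mutant against WT. Its log2 fold change there was -0.09 ± 0.03 (edgeR adjusted p = 0.0627). Stat5a averaged 72.0 ± 3.16 CPM with SHP099, 79.1 ± 1.002 CPM in vehicle-treated mutant cells and 71.9 ± 2.78 CPM in WT cells. Its calls for SHP099 against vehicle (-0.13 ± 0.04, edgeR adjusted p = 0.0488) and for mutant against WT (0.14 ± 0.04, edgeR adjusted p = 0.0348) were lost in 15 of 18 and 13 of 17 alternatives. For SHP099 against vehicle the call held without WT replicate 1 and without SHP099 replicate 1 and was lost without any other library, with adjusted p up to 0.181. For mutant against WT it was lost in 8 of 9 such fits, with adjusted p up to 0.151. Jak2, the kinase of the IL-3 and erythropoietin receptors, was lower in mutant vehicle than in WT cells, at 176 ± 2.16 CPM against 207 ± 3.999 CPM (-0.24 ± 0.04, edgeR adjusted p = 0.00331).

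Of 16 receptor genes upstream of STAT5, 14 were tested and none passed for SHP099 against vehicle with edgeR, where 3 had an unadjusted p under 0.05 and DESeq2 called 2, among them Il2rg. In mutant vehicle against WT cells 2 were higher and 4 lower, and in SHP099-treated mutant against WT cells 2 were higher and 3 lower. Csf2ra and Epor, described next, were both among the lower ones. Csf2ra, the alpha chain of the GM-CSF receptor, averaged 77.3 ± 3.03 CPM in SHP099-treated mutant cells, 83.4 ± 5.68 CPM in vehicle-treated mutant cells and 159 ± 13.3 CPM in WT cells. Its log2 fold change was -0.93 ± 0.07 for mutant vehicle against WT (edgeR adjusted p = 8.45e-05). Epor, the erythropoietin receptor, was lower in mutant vehicle than in WT cells as well, at -1.33 ± 0.23 (edgeR adjusted p = 0.00272). It also stands on the erythroid marker list.

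Of 12 other ID and BMP-SMAD genes, 10 were tested. None passed with SHP099 against vehicle by edgeR or DESeq2, and 0 had an unadjusted p under 0.05, while 2 were higher and 1 lower in mutant vehicle against WT, and 1 was higher and 1 lower in SHP099-treated mutant against WT. Bambi, a decoy receptor of this pathway, averaged 7.80 ± 0.239 CPM in SHP099-treated mutant cells, 7.15 ± 0.378 CPM in vehicle-treated mutant cells and 5.16 ± 0.718 CPM in WT cells. Like Id1 it was higher in both mutant groups than in WT cells, by 0.59 ± 0.11 with SHP099 (edgeR adjusted p = 0.00356) and by 0.47 ± 0.11 with vehicle (edgeR adjusted p = 0.0104). The lower genes were Id2 in mutant vehicle against WT cells (-0.34) and Smad7 in SHP099-treated mutant against WT cells (-0.33). Those calls were lost in 3 of 17 and 5 of 17 alternatives. Of 8 tested partners of the SOCS box and substrates of PIM kinases, 1 was higher and 1 lower with SHP099, 1 higher and 2 lower in mutant vehicle against WT, and 2 higher and 2 lower in SHP099-treated mutant against WT. Cdkn1b, the cell cycle inhibitor p27 and a PIM substrate, was lower in mutant vehicle than in WT cells, at 22.8 ± 0.972 CPM against 28.5 ± 1.75 CPM (-0.32 ± 0.07, edgeR adjusted p = 0.00682).

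The genes whose pattern over the 9 libraries was most like each called member were sought among 9626 genes of at least 5 CPM. Likeness was the root mean square difference of log2 CPM after each gene's own mean was subtracted, so a smaller value is closer. For Osm, whose own deviations from its mean had a root mean square of 0.498, the closest were Furin (0.118), Csf2ra (0.120) and Tanc2 (0.124). For Il2ra, with 0.844, they were Mcpt2 (0.291), Chil1 (0.429) and Ngp (0.437), of which Mcpt2 is on the mast cell list and Ngp on the neutrophil list. Mcpt2 stood at 58.6, 33.2 and 37.1 CPM in SHP099-treated mutant cells, 19.6, 7.89 and 8.95 CPM in mutant vehicle cells, and 30.5, 32.5 and 37.6 CPM in WT cells. As for Il2ra, replicate 1 was the highest in both mutant groups. The summed mast cell list did not share that order. It was highest in replicate 3 of both mutant groups, at 2707 CPM with SHP099 and 2051 CPM with vehicle.

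The other called members had closer matches. Socs1 was closest to Jund (0.0719), Ppp1r3d (0.0851) and F8a (0.0853), and Socs2 to Scd1 (0.0652), Kifap3 (0.0723) and Kctd12 (0.0746). Socs3 was closest to Gcnt2 (0.0831), Tpd52 (0.0881) and Il4ra (0.0888). Pim2 was closest to Smim14 (0.0585), Hcfc1r1 (0.0645) and Leprot (0.0688), and Pim3 to Mast3 (0.0546), Mapk8ip3 (0.0583) and Prdm15 (0.0584). Id1 was closest to Slc27a1 (0.0468), Ccbl2 (0.0486) and Idh2 (0.0527). No member was among the 3 closest genes of another.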

How the data were processed

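The libraries were stranded mRNA libraries (TruSeq), per the labels' protocols. The authors deposited raw counts per gene symbol, and FastQC, STAR, Subread featureCounts and the build mm10 are named, without versions, in the submitters' processing notes. The analysis used edgeR 4.0.16 in R 4.3.3. Of the symbols, 13270 passed filterByExpr (minimum count 10) and 11151 did not. TMM factors scaled the libraries, and all 9 entered 1 quasi-likelihood fit whose terms were the 3 group means. Tests were two-sided, with Benjamini-Hochberg adjustment over all genes of a comparison. A log2 fold change is given with its standard error, and intervals are 95%. The biological coefficient of variation was 9.04%. CPM are counts relative to TMM-scaled library sizes, and precision at low counts is limited by depth (27242168 to 45810089 counts per library).

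The members and gene lists were chosen with earlier results of these data known. Genes named from a list outside the members were mostly taken from the 4 with the smallest p among those called in a comparison. Chiefly those whose call held in every alternative are given. Ccnd3 was not among those 4 in any comparison, and Ccnd2 was among them only for SHP099 against vehicle. Il2rb, Il2rg, Osmr and Stat5b were named after their values were seen. Mutant libraries of the same replicate number, taken from the sample titles, correlated at 0.543, 0.596 and 0.561 in their deviations from group means, against -0.359 to -0.227 for unlike numbers. Deviations from a group mean cancel out, so the values for unlike numbers are not independent of those for like numbers. The main fit left these libraries unpaired. They were treated as pairs only in the ratios per culture and in the fits with the replicate block. Coordinates, lengths and GC content came from GENCODE M21 (GRCm38), and promoter sequences from RefSeq. Replicate libraries of every group differed by more than sampling noise. One column name differed from its sample title in the last character and was taken as SHP099 replicate 3. Alternatives were RLE scaling, DESeq2 1.42.0, omission of the filter, a filter of 1 CPM in 3 or more libraries, omission of each library, the replicate block, the 2 compared groups alone, and removal of a length and GC trend (lowess span 0.3), without and with the block. The scripts were tested on simulated data. One receptor gene of the lists is not reported here.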

Additional observations from a re-analysis of the deposited data

How the results depend on the processing

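The calls of Socs1, Pim2, Pim3 and Il2ra for SHP099 against vehicle, of Socs1, Socs2, Pim2, Osm and Il2ra for mutant against WT, and of Pim3, Osm and Id1 for SHP099-treated mutant against WT held in every alternative. Of the 520 alternative log2 fold changes of members, 461 kept direction and call, 16 gained a call, 8 lost one and 35 turned sign, all of them of values that were not called. The cause was not tested. For all genes the SHP099 comparison called 1769 to 2976 with 1 library left out, and 5563 (2791 higher, 2772 lower) with the replicate block in the mutant libraries alone, where 6 members passed. The block over all 9 libraries gave Cish an adjusted p of 0.0481 for SHP099 against vehicle and 0.0442 for SHP099-treated mutant against WT, and Socs3 0.0454 for mutant against WT. It ties WT to mutant numbers, which do not pair (correlations of -0.135 to -0.052). It changed no other member's call. Members called for SHP099-treated mutant against WT numbered 3 to 6 with 1 library left out.

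For SHP099 against vehicle, Osm turned to 0.0056 (RLE), 0.0064 (DESeq2), 0.0003 (no filter) and 0.0083 (1 CPM filter), and Id1 to -0.0924 and -0.0921 with the length and GC trend removed, without and with the block. With 1 library left out Osm ran from -0.0553 to 0.07, Id1 from -0.0321 to 0.0704, Pim1 from -0.0479 to 0.1223 and Socs2 from -0.076 to 0.0329. For mutant against WT, Pim1 turned to -0.003 (RLE), -0.001 (DESeq2), -0.0077 (1 CPM filter) and -0.013 (2 groups alone), with -0.0683 to 0.105 on leaving out a library. Cish turned to 0.0054 (no filter), 0.0449 and 0.0305 (length and GC trend removed, without and with the block), with -0.1115 to 0.1168 on leaving out a library. For SHP099-treated mutant against WT, leaving out a library gave -0.2606 to 0.2648 for Il2ra and -0.009 to 0.0882 for Pim1. DESeq2 also called Cish for SHP099 against vehicle (0.033), Socs3 for mutant against WT (0.0287) and Cish for SHP099-treated mutant against WT (0.0421). The split of all genes called for mutant against WT was 2248 higher and 1951 lower, but 1908 and 2098 with RLE. For SHP099 against vehicle it was 1169 higher and 1721 lower.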
